A study of Homo sapiens with 10 samples.

Results

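The genes described here are 10 genes of the NRF2 antioxidant and glutathione system, taken by symbol: *NFE2L2*, *KEAP1*, *NQO1*, *GCLC*, *GCLM*, *TXNRD1*, *SRXN1*, *SLC7A11*, *GPX4* and *GSR*. All 10 were among the 13029 genes of the knockout table and 9 were among the 17642 genes of the siRNA table; *SRXN1* was not analysed here in the siRNA experiment. RNA-seq had been made from HCT116 cells, a human colorectal cancer cell line. The first experiment compared 3 *ZMAT3*-WT with 3 *ZMAT3*-KO libraries, and it asks which transcripts change when *ZMAT3*, a p53-induced gene for a zinc-finger RNA-binding protein, is depleted. *ZMAT3*-KO cells carry a CRISPR/Cas9 deletion made with paired guides around the p53 response element in a *ZMAT3* intron, so the transcript is reduced rather than removed. Both lines are single-cell clones and only 1 knockout clone was used, so p-values measure the spread between cultures of a clone and not between clones. The labels of these 6 libraries add the abbreviations EV and unt, which are not explained, and no drug was assumed. The second experiment compared 2 libraries from cells given a control siRNA (siCTRL) with 2 from cells given a pool of 4 siRNAs against p53 (sip53), 72 hr after transfection, and it asks which transcripts depend on p53.

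NRF2, the protein of *NFE2L2*, is a transcription factor that switches on antioxidant genes. In unstressed cells KEAP1 holds NRF2 and passes it to a ubiquitin ligase for degradation; oxidants and electrophiles modify cysteines of KEAP1, and NRF2 then accumulates and binds antioxidant response elements together with small MAF proteins. Its known targets include genes for the supply of cystine (*SLC7A11*), for glutathione synthesis (*GCLC*, *GCLM*), for the recycling of glutathione and thioredoxin (*GSR*, *TXNRD1*), and for quinone reduction (*NQO1*). Because NRF2 is controlled mainly through its protein, the level of its own transcript is not a measure of its activity.

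The labels were checked first. *ZMAT3* was at 5.00, 5.20 and 5.26 log2 CPM (CPM being counts scaled to the library total) in *ZMAT3*-WT and at 2.25, 2.34 and 2.20 in *ZMAT3*-KO libraries, a log2 fold change of -2.89 (SE 0.0696, limma adjusted p = 3.76e-12). *CDKN1A*, a known p53 target, was at 525.01 and 481.06 FPKM (fragments divided by transcript length and by the library's total) in siCTRL and at 34.22 and 37.67 in sip53, and *ZMAT3* itself went from 12 and 13.62 to 3.16 and 1.97 FPKM (log2 fold change -2.31). Neither table carries a read depth: all 6 libraries of the knockout table share the same lowest value, -6.62, and the same highest value, 13.51, as libraries given one distribution do. Of 8 colorectal epithelial markers, 6 had values in the knockout table, and their summed level was 5013 to 5286 CPM in *ZMAT3*-WT and 2930 to 3011 in *ZMAT3*-KO. Most of the lower sum lay in the keratins *KRT8* (log2 fold change -0.94) and *KRT18* (-0.82). The keratin *KRT20*, at a low level, fell most (-1.47, limma adjusted p = 2.43e-06). *EPCAM* (0.009), *CDH1* (0.05) and *CDX2* (-0.09) did not pass the test. Of the same 8 markers, 7 had values in the siRNA experiment, with *VIL1* at only 0.13 to 0.22 FPKM. They summed to 2775 to 3031 FPKM in siCTRL and 2776 to 3204 in sip53, mostly from *KRT8* and *KRT18*. *EPCAM* rose from 204.96 and 191.12 to 281.14 and 319.26 FPKM (log2 fold change 0.60, limma unadjusted p = 0.0234, adjusted p = 0.247). *KRT8* (-0.05), *KRT18* (0.07), *KRT20* (0.12), *CDX2* (-0.22) and *CDH1* (-0.12) did not pass there. Of 8 markers of other cell types, *CD68*, *COL1A1* and *ACTA2* had values; they summed to 15.3 to 16 CPM in *ZMAT3*-WT, 16.8 to 17.4 in *ZMAT3*-KO, 27.6 to 39.6 FPKM in siCTRL and 19.3 to 35.7 in sip53. These sums hide opposite moves: *CD68* rose by 0.98 and *ACTA2* fell by 0.66 on the log2 scale in *ZMAT3*-KO, and in sip53 *CD68* went from 7.97 and 2.06 to 11.6 and 26.93 FPKM while *ACTA2* went from 26.26 and 21.47 to 1.74 and 1.68. Whether these marker differences have a part in the results that follow was not tested, and in bulk RNA a change in the share of cells cannot be told apart from a change in RNA per cell.

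The core of the antioxidant response element was sought as TGACNNNGC, N being any base, on both strands of the RefSeq promoters (GRCh38.p14, 250 bases before to 50 after each start). The table holds promoters of 8 of the 10 genes, those of *SLC7A11* and *GSR* being without an entry, and 3 of the 8 contained the motif: *KEAP1*, *GCLM* and *TXNRD1*. *GCLC*, which was also lower in *ZMAT3*-KO cells, had no match in the stretch searched, nor had *NFE2L2*, *NQO1*, *GPX4* and *SRXN1*. Sequence further from the starts was not searched, so an element there would be missed. Across all 35116 promoters, each counted alone, 13.3% contained the motif. The 3 of 8 is another measure, since a gene counts there if any of its start sites matched. By that measure 1904 of the genes tested in the knockout experiment had the motif and 7826 did not. Of 6 matches 5 are shown. The other, at the first start site of *TXNRD1*, reaches into the transcript that begins there. Positions are counted from the start site named, and a stretch before it can still be transcribed from another start of the gene. The stretches of *KEAP1*, of *GCLM* and of the second start site of *TXNRD1* overlap annotated untranslated regions of the same gene. The stretch shown for the first start site of *TXNRD1* does not. The 5 stretches are shown because all 3 genes were lower in *ZMAT3*-KO cells. Each is written 5′ to 3′ along the gene's strand with the 9 bases of the match in capitals, and a match that reads GCNNNGTCA lies on the opposite strand.
*KEAP1*, second start site, 54 to 46 bases before the start (chr19:10502807-10502835, minus strand): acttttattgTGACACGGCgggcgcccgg
*KEAP1*, second start site, 31 to 23 bases before the start (chr19:10502784-10502812, minus strand): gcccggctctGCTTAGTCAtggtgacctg
*GCLM*, 34 to 26 bases before the start (chr1:93909446-93909474, minus strand): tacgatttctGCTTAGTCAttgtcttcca
*TXNRD1*, first start site, 99 to 91 bases before the start (chr12:104215655-104215713, plus strand): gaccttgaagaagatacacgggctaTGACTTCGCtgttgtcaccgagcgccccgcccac
*TXNRD1*, second start site, 102 to 94 bases before the start (chr12:104286920-104286948, plus strand): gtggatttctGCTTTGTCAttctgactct
A match describes letters in a short window and is not a binding site. Among the genes tested in the knockout experiment, 29.6% of the 1904 with the motif and 31.1% of the 7826 without it were called lower, with median log2 fold changes of 0.006 and -0.008.

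In *ZMAT3*-KO cells the 10 genes did not move as a group. At an adjusted p under 0.05 (limma, Benjamini-Hochberg over all genes), 6 were called: *SLC7A11* and *GPX4* rose, and *KEAP1*, *TXNRD1*, *GCLM* and *GCLC* fell. This is 60.0% of the 10, beside 58.8% of all 13029 genes tested, so the number of calls is near the background. Of all genes 28.7% were called higher and 30.1% lower. With a further demand of a 1.5-fold change, which 8.96% of all genes met, *SLC7A11* was the only one of the 10 left. The median log2 fold change of the 10 was -0.06, beside -0.005 over all genes. In 9 of the 10 the libraries of the 2 groups did not overlap, as in 64.2% of all genes.

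*SLC7A11* changed most. The gene (chromosome 4, 138164097 to 138242349, minus strand, hg38 in GENCODE release 44) encodes the transporter subunit of system xc-, which takes up cystine in exchange for glutamate and so brings in the cysteine for glutathione. Its level was 4.94, 5.14 and 5.11 log2 CPM in *ZMAT3*-WT and 5.99, 6.12 and 6.06 in *ZMAT3*-KO libraries. Every knockout library was above every wild-type library by more than the whole range of either group. The log2 fold change was 0.99 (SE 0.0520, 95% confidence interval 0.88 to 1.11, adjusted p = 7.08e-09), a 1.99-fold higher level with an interval of 1.84 to 2.15. Of all genes, 209 (1.60%) had a larger increase. The antisense transcript *SLC7A11-AS1* overlaps its exons on the other strand, and the knockout libraries were stranded. *SLC3A2*, the heavy chain with which the transporter pairs at the cell surface, was named after its values were seen: it was at 8.34, 8.28 and 8.29 log2 CPM in *ZMAT3*-WT and 8.03, 7.99 and 8.03 in *ZMAT3*-KO, a log2 fold change of -0.28 (adjusted p = 2.02e-06). The light and the heavy chain of this transporter thus changed in opposite directions.

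The next step, the joining of glutamate and cysteine, is made by glutamate-cysteine ligase, whose catalytic subunit is GCLC and whose modifier subunit is GCLM. Both transcripts were lower by a small amount. *GCLC* (chromosome 6, 53497341 to 53616970, minus strand) was at 6.42, 6.54 and 6.47 log2 CPM in *ZMAT3*-WT and at 6.32, 6.34 and 6.33 in *ZMAT3*-KO, a 0.902-fold level (log2 fold change -0.15, SE 0.0349, adjusted p = 0.00283). *GCLM* (chromosome 1, 93885199 to 93909456, minus strand) was at 5.82, 5.87 and 5.89 and then at 5.58, 5.70 and 5.70 log2 CPM, a 0.871-fold level (log2 fold change -0.20, SE 0.0394, adjusted p = 0.000824). In both genes the highest knockout library was below the lowest wild-type library. *GCLC-AS1* overlaps *GCLC* exons on the opposite strand. Other annotated genes overlap exons of *GCLC*, *NFE2L2* and *SRXN1* on the same strand, which stranded libraries do not separate.

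Glutathione reductase, the product of *GSR*, returns oxidized glutathione to its reduced form with NADPH. Its transcript was at 8.28, 8.30 and 8.26 log2 CPM in *ZMAT3*-WT and 8.21, 8.22 and 8.25 in *ZMAT3*-KO. The libraries did not overlap, but the difference of -0.05 (95% confidence interval -0.11 to 0.007) did not pass the test (adjusted p = 0.117). GPX4 uses glutathione to reduce lipid peroxides in membranes and is the enzyme whose loss leads to ferroptosis, a cell death driven by lipid peroxidation. *GPX4* (chromosome 19, 1103982 to 1106791, plus strand) was at 7.92, 7.78 and 7.78 log2 CPM in *ZMAT3*-WT and at 8.15, 8.03 and 8.12 in *ZMAT3*-KO. It rose 1.21-fold (log2 fold change 0.27, SE 0.0415, adjusted p = 0.000112), and 15.4% of all genes had a larger increase.

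Of the 10 genes, *TXNRD1* and *SRXN1* serve the thioredoxin and peroxiredoxin system. TXNRD1, the cytosolic selenoenzyme that reduces thioredoxin, had the largest decrease. *TXNRD1* (chromosome 12, 104215779 to 104350307, plus strand) was at 9.12, 9.26 and 9.23 log2 CPM in *ZMAT3*-WT and 8.88, 8.93 and 8.84 in *ZMAT3*-KO, a 0.801-fold level (log2 fold change -0.32, SE 0.0372, 95% confidence interval -0.40 to -0.24, adjusted p = 1.17e-05). *SRXN1*, for sulfiredoxin, which repairs over-oxidized peroxiredoxins, was at 7.47, 7.46 and 7.43 and at 7.39, 7.39 and 7.38 log2 CPM. All knockout libraries were below all wild-type libraries, yet the difference of -0.06 (95% confidence interval -0.12 to -0.006) was just outside the threshold (adjusted p = 0.0540). A limma fit blocked on replicate number put it just inside (adjusted p = 0.0462).

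*NFE2L2* was at 6.95, 6.98 and 6.97 log2 CPM in *ZMAT3*-WT and 6.89, 6.95 and 6.89 in *ZMAT3*-KO, a difference of -0.05 (95% confidence interval -0.12 to 0.009, adjusted p = 0.126). *KEAP1* (chromosome 19, 10486125 to 10503558, minus strand), the inhibitor, fell to 0.828 of its wild-type level: 7.44, 7.32 and 7.32 log2 CPM against 7.10, 7.06 and 7.09 (log2 fold change -0.27, SE 0.0350, adjusted p = 2.69e-05). *NQO1*, the quinone reductase often used as a readout of NRF2, was at 8.59, 8.54 and 8.53 and at 8.55, 8.50 and 8.50 log2 CPM. It was the only one of the 10 whose groups overlapped, with a difference of -0.04 (95% confidence interval -0.10 to 0.02, adjusted p = 0.270). For *NFE2L2*, *NQO1* and *SRXN1* the intervals allow a change of at most 0.12 on the log2 scale, while the known NRF2 targets that were called went both ways, *SLC7A11* higher and *TXNRD1*, *GCLM* and *GCLC* lower.

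**Figure D1:**
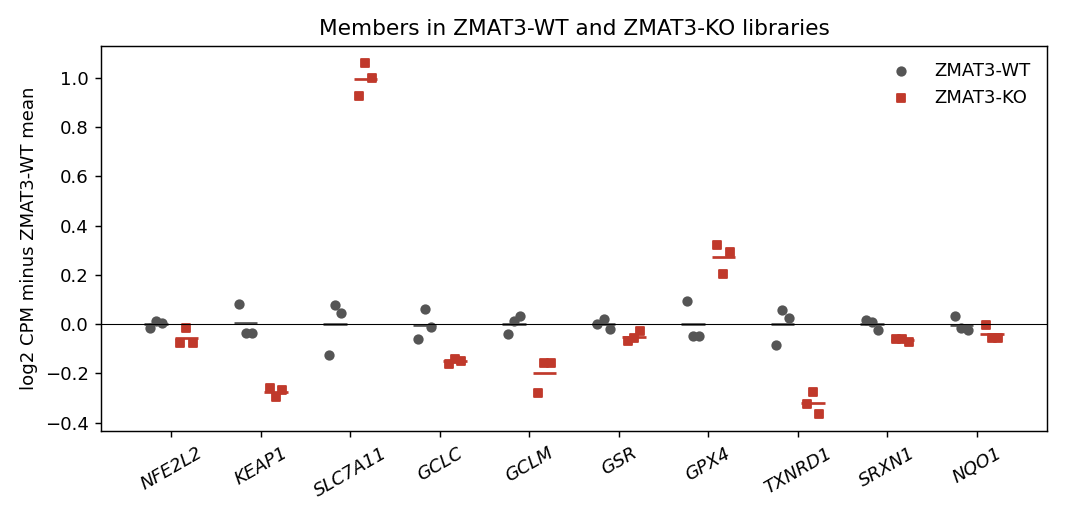
Each gene's log2 CPM in 3 *ZMAT3*-WT (grey circles) and 3 *ZMAT3*-KO (red squares) libraries, less its *ZMAT3*-WT mean (vertical axis), with bars at the group means. *SLC7A11* sits near 0.99, *GPX4* near 0.27, and *TXNRD1*, *KEAP1*, *GCLM* and *GCLC* between -0.32 and -0.15, while the means of the other 4 genes lie between -0.06 and -0.04.

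In the siRNA experiment none of the 9 genes passed the threshold in the comparison of the 2 groups. At an unadjusted p under 0.05 (limma on log2(FPKM + 0.1), two-sided, the rule the study uses), 0 of 9 were called, beside 15.1% of the 14274 genes tested, 5.86% called higher and 9.28% lower. Over all genes 0.273% passed an adjusted p under 0.05, and 0 of the 9 did. In 4 of the 9 the groups did not overlap, beside 46.4% of all genes. The median log2 fold change was -0.15, beside -0.04 over all genes. The intervals are wide with 2 libraries a group. The count depends on how the libraries are paired. In a pairing chosen after seeing the data, siCTRL replicate 1 was blocked with sip53 replicate 2, and siCTRL replicate 2 with sip53 replicate 1. With it 5 of the 9 were called, 3 higher and 2 lower. Over all 14274 genes that pairing called 5538, against 2161 without it.

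FPKM values are per length and allow the 9 genes to be ranked by level. In siCTRL libraries the mean was 318 FPKM for *GPX4*, 151 for *NQO1*, 117 for *TXNRD1*, 68.9 for *GSR*, 55.9 for *KEAP1*, 53.4 for *NFE2L2*, 22.9 for *GCLC*, 9.84 for *GCLM* and 3.81 for *SLC7A11*. *GPX4* was thus at 83.5 times the level of *SLC7A11*. Of neighbours in this order, *KEAP1* and *NFE2L2* had overlapping siCTRL ranges, and no other pair did. The ligase subunits differed: the catalytic *GCLC* was above the modifier *GCLM* in both siCTRL libraries. The strand setting of these libraries is not given in the sources used here, so reads of *SLC7A11*, *GCLC*, *NQO1* and *NFE2L2* cannot be told apart from those of genes that overlap their exons on the other strand.

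**Figure D2:**
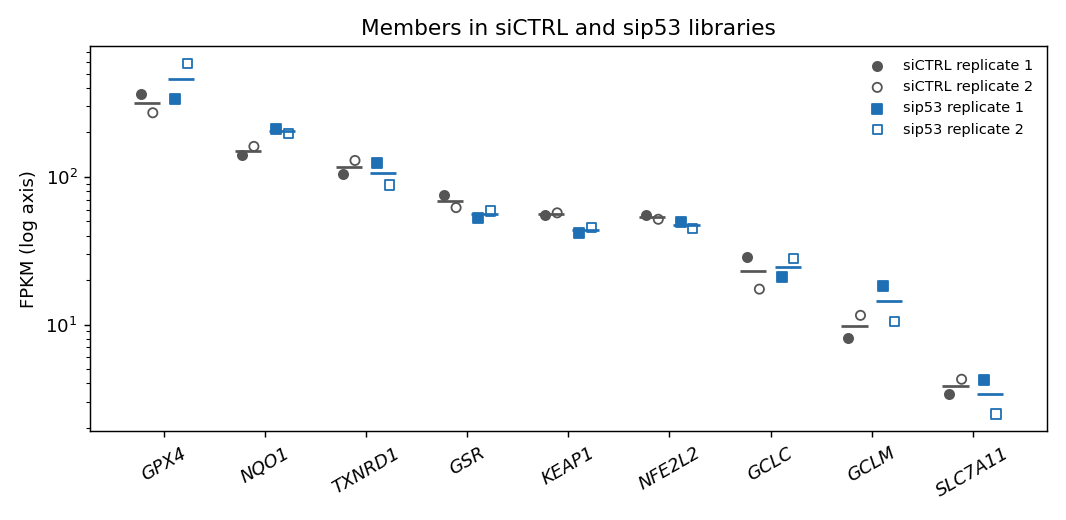
FPKM (logarithmic vertical axis) of 9 genes in 2 siCTRL (grey circles) and 2 sip53 (blue squares) libraries, filled for replicate 1 and open for replicate 2, with bars at the group means. From *GPX4* at 318 to *SLC7A11* at 3.81 FPKM in siCTRL the genes span a wider range than the 2 groups do within any gene.

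Of the regulators, *KEAP1* was at 54.79 and 57.07 FPKM in siCTRL and 41.39 and 45.46 in sip53. Both sip53 libraries were lower, with a log2 fold change of -0.37 (SE 0.174, 95% confidence interval -0.80 to 0.07, unadjusted p = 0.0857, adjusted p = 0.398 by limma). *NFE2L2* was at 55.09 and 51.62 and then at 49.46 and 44.71 FPKM, also without overlap (log2 fold change -0.18, 95% confidence interval -0.62 to 0.26). *NQO1* was at 140.74 and 160.85 FPKM in siCTRL and 211.72 and 197.11 in sip53. Both sip53 libraries were higher, by 1.36-fold on average (log2 fold change 0.44, 95% confidence interval -0.03 to 0.92, limma unadjusted p = 0.0628). *KEAP1* and *NQO1* were the nearest to the threshold and passed it in limma without the filter on low levels. The unadjusted p was then 0.0411 for *KEAP1* and 0.0403 for *NQO1*. *NQO1* also passed it in limma after libraries were centred on their median gene, at a log2 fold change of 0.52 (unadjusted p = 0.0391).

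Of the glutathione genes, *SLC7A11* was at 3.36 and 4.26 FPKM in siCTRL and 4.24 and 2.48 in sip53. The log2 fold change was -0.22 with an interval of -1.03 to 0.60, and it was 0.16 without sip53 replicate 2. That interval does not reach the 0.99 measured for *SLC7A11* in *ZMAT3*-KO cells; the difference between the experiments was not tested. *GCLC* was at 28.48 and 17.37 FPKM in siCTRL and 20.89 and 27.92 in sip53, and the replicates of each group differed more than the groups (log2 fold change 0.12, interval -0.64 to 0.88). Its sign turned without siCTRL replicate 2 (-0.24) and without sip53 replicate 2 (-0.09). *GCLM* was at 8.14 and 11.54 FPKM and then at 18.17 and 10.53 (log2 fold change 0.51, interval -0.32 to 1.34). Without sip53 replicate 2 its difference was 0.90 (limma unadjusted p = 0.0264).

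*GSR* was at 75.80 and 61.93 FPKM in siCTRL and 52.98 and 58.74 in sip53, with both sip53 libraries lower (log2 fold change -0.30, interval -0.79 to 0.20). *GPX4* was at 364.15 and 271.72 FPKM and then at 334.97 and 586.22. The highest library was sip53 replicate 2, and the log2 fold change of 0.49 (interval -0.35 to 1.33) was 0.09 without it and 0.90 (limma unadjusted p = 0.0432) without sip53 replicate 1. *TXNRD1* was at 104.92 and 129.16 FPKM in siCTRL and 124.68 and 88.07 in sip53 (log2 fold change -0.15, interval -0.78 to 0.47), and at 0.10 without sip53 replicate 2. In the 5 genes whose groups overlapped, siCTRL replicate 1 and sip53 replicate 2 lay on the same side within their groups. In *GPX4* and *GCLC* these libraries were the higher of their groups, and in *SLC7A11*, *GCLM* and *TXNRD1* they were the lower. Of the genes without overlap, *NQO1* and *GSR* had this pattern too, while *NFE2L2* and *KEAP1* did not.

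**Figure D3:**
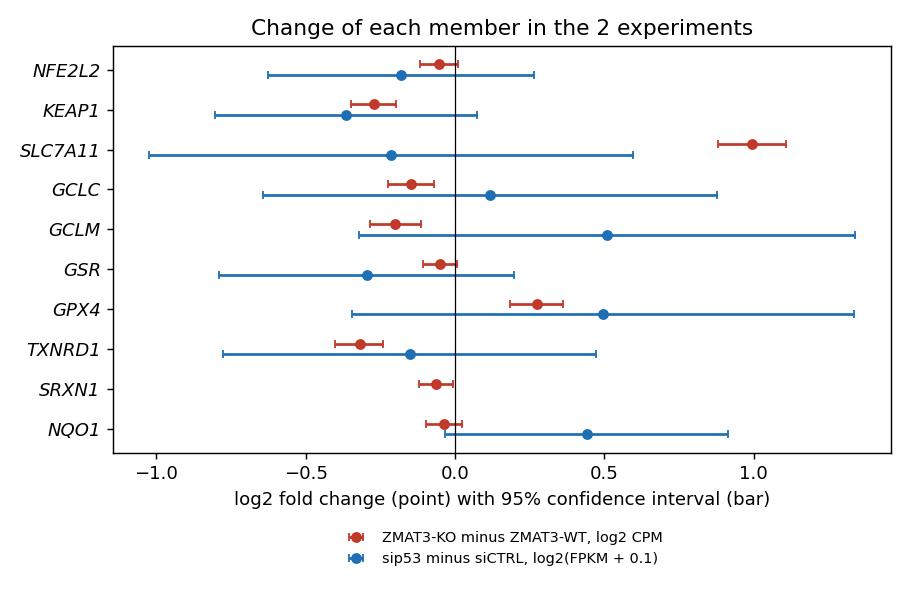
Log2 fold change (points) with 95% confidence interval (bars) of each gene for *ZMAT3*-KO minus *ZMAT3*-WT (red, log2 CPM, 3 libraries a group) and sip53 minus siCTRL (blue, log2(FPKM + 0.1), 2 a group). The red interval of *SLC7A11*, 0.88 to 1.11, lies right of its blue one, -1.03 to 0.60; all blue intervals cross 0, and *SRXN1* has no blue point.

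A wider set of 108 further genes in 9 lists places the 10 genes in their pathways. In *ZMAT3*-KO cells 95 of them had values: 37 rose, 30 fell and 28 did not pass, with a median log2 fold change of 0.02. The share called was 70.5%, beside 58.8% of all genes, of which 28.7% were higher and 30.1% lower; the counts by list are read against the same shares and were not tested as groups. The enzymes and pumps that handle quinones, haem and foreign compounds had 11 of 15 rising and 2 falling, with a median of 0.18 beside -0.005 over all genes. Of these, 3 are efflux pumps that also export glutathione conjugates: *ABCC3* rose from 2.60, 2.48 and 2.44 to 3.57, 3.61 and 3.59 log2 CPM (log2 fold change 1.08, adjusted p = 2.46e-08), *ABCC1* from 6.56, 6.61 and 6.56 to 7.33, 7.39 and 7.30 (0.77, adjusted p = 8.41e-10), and *ABCC2* from 6.78, 6.87 and 6.77 to 7.51, 7.54 and 7.47 (0.70, adjusted p = 2.73e-09), all by limma. A further pump of the family, *ABCC4*, named after its values were seen, did not pass (-0.09, adjusted p = 0.120). *HMOX1*, the haem oxygenase and a known NRF2 target, rose by a log2 value of 0.18 (adjusted p = 0.00464).

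In glutathione synthesis and precursor supply, 1 of 8 rose, 4 fell and 3 did not pass. The riser was *CHAC1*, an enzyme that degrades glutathione and a known target of the amino acid stress response: it was at 1.78, 1.84 and 1.87 log2 CPM in *ZMAT3*-WT and 3.29, 3.24 and 3.23 in *ZMAT3*-KO (log2 fold change 1.43, SE 0.0697, adjusted p = 3.68e-09). Those that fell were *SLC3A2*, *CTH*, *GGT1* and *GSS*, with log2 fold changes of -0.28, -0.27, -0.11 and -0.09. Of the partners of NRF2, 3 of 10 rose, 3 fell and 4 did not pass. *SQSTM1*, for the autophagy receptor p62 that binds KEAP1, rose from 8.33, 8.30 and 8.26 to 9.0, 8.95 and 8.98 log2 CPM (0.68, adjusted p = 8.45e-10). *NFE2L3*, a relative of *NFE2L2*, fell from 6.16, 6.16 and 6.14 to 5.56, 5.62 and 5.56 (-0.57, adjusted p = 1.5e-08).

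Among genes of ferroptosis and iron handling 2 of 8 rose, 5 fell and 1 did not pass. The ferritin light chain *FTL* rose by 0.59 on the log2 scale, from 9.97, 9.89 and 9.87 to 10.55, 10.45 and 10.50 log2 CPM (adjusted p = 1.62e-08); it has near-identical copies in the genome, which may share its reads. *DHODH*, a mitochondrial enzyme that also protects against lipid peroxidation, fell by 0.45 (adjusted p = 5.96e-06). *SLC40A1*, the iron exporter ferroportin, lay outside the naming rule and was chosen after its values were seen: it was at 1.42, 1.5 and 1.75 log2 CPM in *ZMAT3*-WT and at -4.79, -6.62 and -6.62 in *ZMAT3*-KO, the last 2 being the lowest value of the table, so no fold is given. *AKR1C3*, a ketone-reducing enzyme chosen in the same way, was at -1.04, -1.20 and -0.85 and at 0.70, 0.22 and 0.66 log2 CPM.

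Of 9 redox genes linked to p53, 2 rose, 6 fell and 1 did not pass, with a median of -0.19. *ALDH4A1*, a mitochondrial enzyme of proline breakdown, fell by 0.88 (adjusted p = 1.34e-08), the sestrin *SESN1* by 0.41 (adjusted p = 2.85e-05) and *TIGAR*, which lowers glycolytic flux in favour of NADPH, by 0.33 (adjusted p = 8.07e-06). In the other lists, 7 of 18 glutathione-using enzymes rose and 4 fell, *MGST2* by 0.41 (adjusted p = 0.000418). Of the thioredoxin and peroxiredoxin genes 5 of 15 rose and 3 fell, of the NADPH suppliers 4 of 8 rose and 3 fell, and of the superoxide and peroxide enzymes 2 of 4 rose. The other 7 thioredoxin and peroxiredoxin genes did not pass. *TXNRD1* itself fell, as did 3 of these 15 relatives, beside 30.1% of all genes called lower.

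In sip53 cells 96 of the wider genes were tested: 8 rose and 15 fell at an unadjusted p under 0.05, 73 did not pass, and the median was -0.03. The 23 calls are 24% of those tested, beside 15.1% of all genes, of which 5.86% were higher and 9.28% lower. They became 13 without siCTRL replicate 1 and 14 without siCTRL replicate 2. The p53-linked redox genes took 7 of the 23, with 6 of 9 falling, 1 rising, and a median of -1.20; several of these genes are known direct p53 targets. Of the 96 genes, 1 of this list was past the adjusted threshold. *FDXR* (-1.59), *SESN1* (-1.43), *SESN2* (-1.22) and *TIGAR* (-1.20) fell, and *SAT1*, for the polyamine acetyltransferase, rose from 234.81 and 256.21 to 561.12 and 512.92 FPKM (1.13). In *ZMAT3*-KO cells *SESN2* (0.21) rose, while *FDXR* (-0.23) and *SAT1* (-0.17) fell.

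Outside the p53 list, *CHAC1* rose in sip53 cells too, from 3.75 and 3.45 to 9.18 and 9.53 FPKM (log2 fold change 1.35, limma unadjusted p = 0.000557, adjusted p = 0.0869). *HMOX1* rose from 14.51 and 17.08 to 25.15 and 27.36 FPKM (0.73, unadjusted p = 0.00940 by limma), and the small MAF gene *MAFF* from 8.36 and 6.99 to 12.43 and 13.17 (0.74, unadjusted p = 0.0102 by limma). *FTL* rose by 0.66 and *GGT7*, a gamma-glutamyltransferase family gene, by 0.61; both calls were lost when any 1 library was left out, that of *HMOX1* without siCTRL replicate 1 and that of *MAFF* without siCTRL replicate 2. *ABCC3* fell from 5.35 and 3.84 to 1.91 and 1.37 FPKM (-1.43, unadjusted p = 0.00383 by limma), whereas it rose in *ZMAT3*-KO cells. *SQSTM1* (0.07), *NFE2L3* (-0.15), *DHODH* (0.02) and *ABCC2* (-0.54) did not pass, while *ALDH4A1* (-1.17) fell. *ABCC1* (-0.68, limma unadjusted p = 0.031, adjusted p = 0.276) and *MGST2* (-0.55, limma unadjusted p = 0.04, adjusted p = 0.302) also fell, near the threshold. In *ZMAT3*-KO cells *MAFF* (-0.19, adjusted p = 0.0926) and *GGT7* (0.15, adjusted p = 0.312) did not pass. No test compared the changes of the 2 experiments.

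By list, 2 of 15 quinone, haem and xenobiotic genes rose and 2 fell in sip53 cells, 2 of 8 glutathione synthesis genes rose and 1 fell, and 0 of 20 glutathione-using enzymes rose while 4 fell. Of the NRF2 partners 1 of 10 rose, of the thioredoxin and peroxiredoxin genes 1 of 15 fell, and of ferroptosis and iron genes 2 of 7 rose and 1 fell. None of 8 NADPH suppliers and none of 4 superoxide and peroxide enzymes passed at an unadjusted p under 0.05 in limma, nor at an adjusted one.

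**Figure D4:**
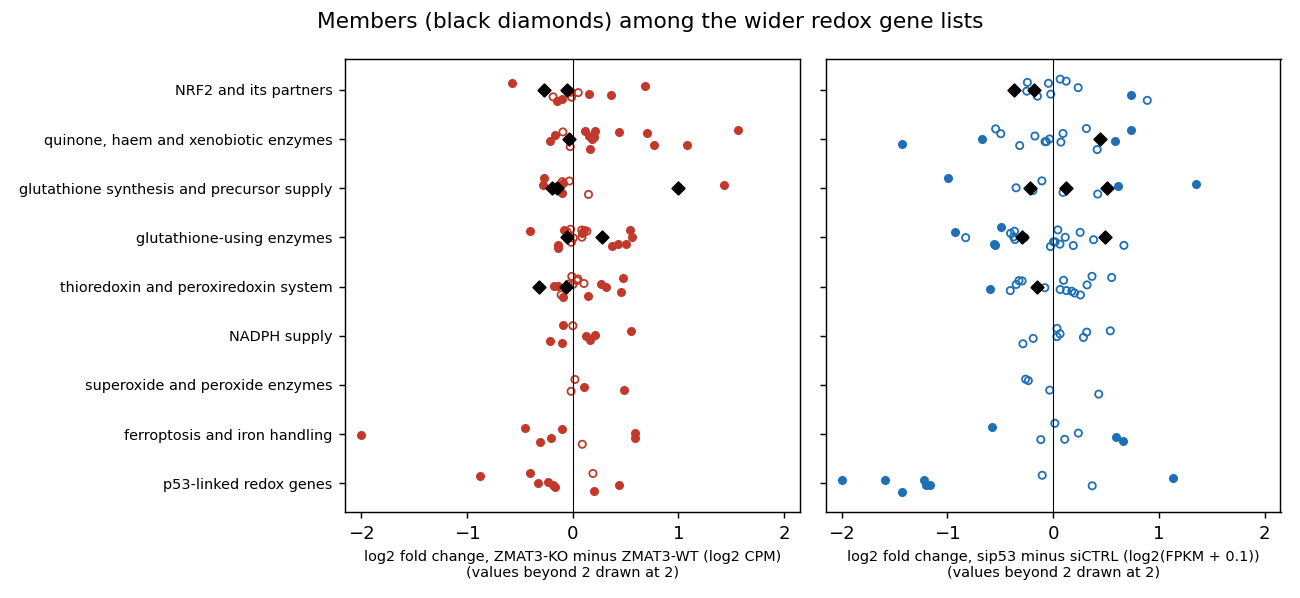
Log2 fold change (horizontal axes, values beyond 2 drawn at 2) of every tested gene of the 9 lists in *ZMAT3*-KO (left) and sip53 (right) cells; filled circles passed the test of that experiment, open circles did not, and black diamonds are the 10 genes, whether called or not. On the left the quinone, haem and xenobiotic list lies mostly right of 0, and on the right the p53-linked list lies mostly left of it.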

How the data were processed

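RNA-seq of 10 HCT116 libraries was analysed from the processed tables. For the knockout experiment the authors used Cutadapt for trimming, STAR for alignment to hg38 and RSEM for quantification; the deposited values are log2 CPM, and the linear values of each library sum to between 999929 and 999931. For the siRNA experiment the deposited values were read as FPKM: over 745 single-transcript genes with an authors' mean count of at least 100, the slope of log2(FPKM / mean) on log2 length was -0.91. That mean is a deposited signal of normalized counts per gene, used for this check alone. Per the labels the tools CASAVA 1.8.2, TopHat2 2.0.8 and FastQC 0.11.2 and the builds hg19 and hg38 were named with no role; the siRNA aligner is not given in the sources used here. The authors' own fold changes, statistics and p-values in both tables were not used. No counts were given, so depth is unknown.

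The experiments were fitted separately (limma 3.58.1, R 4.3.3; variance trend, two-sided, Benjamini-Hochberg adjustment over all tested genes): log2 CPM without a filter, and log2(FPKM + 0.1) where the mean over libraries reached 0.5 FPKM. A fold change on the latter scale understates that of low genes. Calls used an adjusted p under 0.05 in the knockout and an unadjusted p under 0.05 in the siRNA experiment. The code was tested on simulated data in which 200 genes were changed. Named are the 10 genes, and of the wider lists up to 6 called genes per direction and comparison with the largest change and a mean of at least 1 FPKM or 0 log2 CPM, whose groups in the siRNA experiment do not overlap; the level of the siRNA target and 1 gene of the rule are not reported here. The 10 genes, the lists and the tests were chosen with earlier results of these data known. Tables and figures were made with Python 3.11.15, pandas 2.3.3, numpy 2.4.6 and matplotlib 3.10.9. Alternatives were another pseudocount or filter, centring, no variance trend, a replicate block and leaving out each library.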

Additional observations from a re-analysis of the deposited data

How the results depend on the processing

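In the knockout experiment all calls of the 10 genes kept their side of the threshold and their direction under each alternative, except *SRXN1* with the replicate block; their number was 6 to 7. Samples with the same replicate number did not deviate together there (correlations of -0.04, -0.02 and -0.09 over 13029 genes), so the numbers give no pairing; the replicate block gave 7 of the 10 genes and 71 wider genes. The siRNA libraries, at -0.62 over 14274 genes, deviated together in the crossed pairing instead (0.62), an alternative chosen after seeing the data. Replicate block: 0 of the 9 genes, 12 wider genes and 1084 of all genes were called, from 0, 23 and 2161. Crossed replicate block: 5 of the 9 genes (3 higher, 2 lower), 53 wider genes and 5538 of all genes were called. No filter gave 2 and centring on the median gene 1 of the 9 genes; leaving out each library gave 0 to 1 of the 9 genes, 13 to 17 wider genes and 1185 to 1891 of all genes. Centring also turned the split of all siRNA calls from 836 higher and 1325 lower to 1120 and 1048. The sign of 3 genes turned when a siRNA library was left out: *SLC7A11* ranged from -0.59 to 0.16 and *TXNRD1* from -0.40 to 0.10, both positive without sip53 replicate 2, and *GCLC* from -0.24 (without siCTRL replicate 2) to 0.47, being -0.09 without sip53 replicate 2. The cause was not tested. With 2 libraries a group and no read counts, the depth behind each value is unknown.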
